A study of Mus musculus with 8 samples.

Results

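The genes described here are 10 genes of MHC class I antigen presentation, H2-K1, H2-D1, B2m, Psmb8, Psmb9, Tap1, Tap2, Tapbp, Calr and Nlrc5, and the DC-SCRIPT peaks that belong to them in mouse splenic dendritic cells. DC-SCRIPT is the zinc finger protein encoded by Zfp366. A peak belonged to a gene when its centre lay inside the gene or, where it lay in no protein-coding gene, when that gene was the nearest one. By this rule 8 of 31473 peaks belonged to the 10 genes in cDC1, and 0 of 2776 in cDC2. The genes make up 10 of the 21887 protein-coding genes compared.

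Class I molecules show fragments of a cell's own proteins, and in dendritic cells also of engulfed material, to CD8 T cells. The immunoproteasome cuts proteins into peptides, the transporter made of Tap1 and Tap2 carries them into the endoplasmic reticulum, and a loading complex with tapasin and calreticulin places them on a heavy chain paired with beta-2-microglobulin. Nlrc5 is the transcriptional activator of many of these genes. Presentation of engulfed antigen on class I, called cross-presentation, is a known specialty of cDC1, whereas cDC2 are known mainly for priming CD4 T cells.

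DC-SCRIPT was profiled by CUT&Tag, in which an antibody guides a transposase to the protein so that nearby DNA is cut and sequenced. The 4 groups, all sorted from spleens of female C57BL/6 mice, were zfp366-/- cDC1 (2 libraries), zfp366+/+ cDC1 (3 libraries), zfp366-/- cDC2 (2 libraries) and zfp366+/+ cDC2 (1 library), and each library was made from a pool of mice. Neither the age of the mice nor which part of Zfp366 was deleted is stated in the sources used. The deposited lists hold 1 set of knockout tags and 1 set of wild-type tags per subset. Where a group has several libraries, the sources used do not state which of them entered its set. Wild-type cDC2 has 1 library. For groups with several libraries, no value per library can be given. No spread between mouse pools can be given either, and no test between genotypes over replicates was made. Depth was 12.133 M knockout and 35.468 M wild-type tags in cDC1, and 6.826 M knockout and 4.775 M wild-type tags in cDC2. The knockout depths were derived here from the deposited columns, and that of cDC2 is a fitted estimate. Only regions with a wild-type over knockout fold of at least 4 were listed, so wild-type signal above knockout was fixed by the authors' selection and is no finding at any peak. Peaks near a gene do not measure its expression. In cDC1 they were listed near 5 of 5 cDC1 marker genes and 4 of 5 cDC2 marker genes, where 51.4% of all protein-coding genes had a peak. In cDC2 they were listed near 3 of 5 cDC1 and 4 of 5 cDC2 marker genes, where 9.54% of all genes had one. This gives no check of cell identity.

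The unit of signal, normalised tags, is the number of tags in a peak when the library total is set to 10000000. Each fold is wild type over knockout at equal depth, as deposited, and its 95% interval was computed here from the tags. Intervals of tags and folds cover counting error only. The score is the peak caller's own measure, and ranks are by score within a list. Coordinates are those of mouse build GRCm38, and gene ends are called lower and upper by coordinate.

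The start regions of class I genes are shown first because none of those examined lay under a peak. RefSeq windows of 300 bases, with 250 before and 50 after a start site, were found for 8 of the 10 genes, and for neither Tap2 nor Nlrc5. None of these windows overlapped a peak of either list. The window of Tapbp, at chr17:33919228-33919527 on the plus strand, came closest and ended 106 bp from a cDC1 peak. That of Tap1, at chr17:34187306-34187605 on the plus strand, shares 275 bases with the window of Psmb9, since these genes start 226 bp apart and run in opposite directions. The windows of H2-D1, at chr17:35262844-35263143 on the plus strand, and of H2-K1, at chr17:34000298-34000597 on the minus strand, are shown as a pair of related genes of which H2-D1 alone had peaks. All are read 5′ to 3′ from GRCm38.p6. Capitals mark matches on either strand to CCAAT, to TGACG and to the kappa-B element known from class I promoters.

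Tapbp: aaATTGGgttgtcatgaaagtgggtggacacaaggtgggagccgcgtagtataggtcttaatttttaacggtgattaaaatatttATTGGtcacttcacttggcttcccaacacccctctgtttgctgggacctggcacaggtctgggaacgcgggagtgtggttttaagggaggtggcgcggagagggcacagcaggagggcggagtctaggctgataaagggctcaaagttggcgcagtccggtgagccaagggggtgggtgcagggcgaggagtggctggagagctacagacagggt
Tap1: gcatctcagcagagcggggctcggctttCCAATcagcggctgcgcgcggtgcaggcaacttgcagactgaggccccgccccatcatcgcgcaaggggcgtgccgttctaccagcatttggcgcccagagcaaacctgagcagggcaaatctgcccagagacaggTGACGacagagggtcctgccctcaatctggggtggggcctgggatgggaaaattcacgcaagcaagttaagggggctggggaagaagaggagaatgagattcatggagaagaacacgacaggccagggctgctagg
H2-D1: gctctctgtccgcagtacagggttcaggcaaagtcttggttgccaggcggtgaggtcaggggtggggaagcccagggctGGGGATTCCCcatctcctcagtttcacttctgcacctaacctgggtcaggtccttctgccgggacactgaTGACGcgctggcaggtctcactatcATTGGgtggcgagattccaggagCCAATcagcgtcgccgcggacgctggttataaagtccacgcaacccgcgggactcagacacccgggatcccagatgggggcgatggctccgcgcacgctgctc
H2-K1: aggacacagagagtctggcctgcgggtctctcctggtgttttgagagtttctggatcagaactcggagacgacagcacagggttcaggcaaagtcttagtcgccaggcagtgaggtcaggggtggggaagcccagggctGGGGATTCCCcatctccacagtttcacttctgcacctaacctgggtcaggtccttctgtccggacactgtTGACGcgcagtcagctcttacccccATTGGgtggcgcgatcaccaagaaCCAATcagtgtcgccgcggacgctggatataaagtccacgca

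The H2-D1 and H2-K1 windows were alike at 214 of 239 aligned bases, or 89.5%. Each held the kappa-B element, which occurred in 0.107% of all 32851 windows in the RefSeq table. The element was searched in a form known from class I promoters, and these windows are alike, so its matches here are no independent finding. Each window also held TGACG, present in 20.8% of windows, and CCAAT, present in 37.4%. The Tap1 window held TGACG and CCAAT, and the Tapbp window held CCAAT at more than 1 place. A core of the interferon-stimulated response element, which is GAAA and GAAA with any 2 bases between them, was found among the 8 genes in the B2m window alone and in 3.44% of all windows. Only this exact form was searched, so the lack of a match does not show that the other windows lack the element. The PU.1 motif GAGGAAGT, present in 3.2% of windows, and the AP-1 motif TGANTCA, present in 7.81%, had no match in the windows of the 8 genes. Marked matches do not overlap one another in the sequences shown. A match describes the letters of a window and is not evidence of binding.

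In cDC1, 4 of the 10 class I genes had a peak, namely Nlrc5 with 4 peaks, H2-D1 with 2, and Psmb9 and Tapbp with 1 each. Among all protein-coding genes, 51.4% had a cDC1 peak by the same rule. A peak centre lay inside 2 of the 10 genes, Tapbp and Nlrc5, against 37.3% of all protein-coding genes. Within 1 kb of a RefSeq start, a cDC1 peak centre was found for 1 of the 8 genes with a window, Tapbp, against 31.8% of 17492 protein-coding genes. These shares of members were each below the share over all genes, and with so few genes no difference is claimed. Nlrc5, with the most peaks, is also the longest of the genes at 92.94 kb. The other 9 span 3.26 to 11.84 kb, and among them Tap2 and Tap1, at 11.84 and 9.67 kb, had no peak, whereas H2-D1, at 4.4 kb, had 2. The part of gene length in the counts was not tested. With a deposited fold of at least 8, 2 of the 10 genes had a cDC1 peak (Psmb9 and Nlrc5), against 38.6% of all protein-coding genes.

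**Figure D1:**
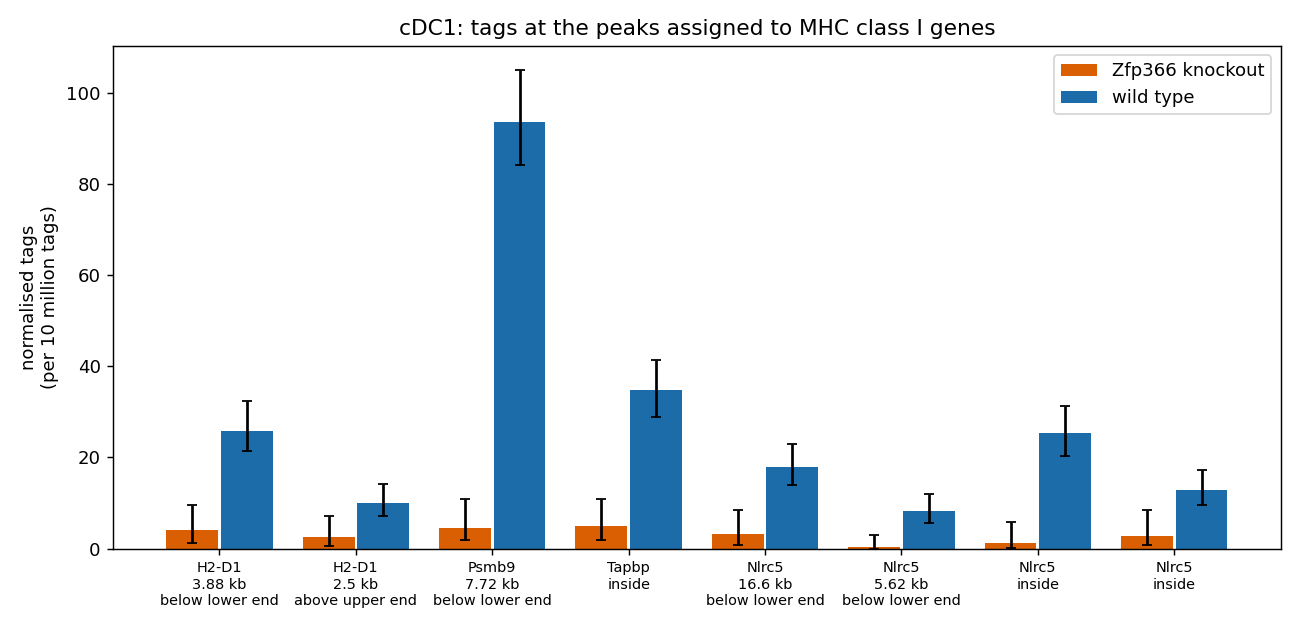
Normalised tags in knockout (orange, left bar) and wild-type (blue, right bar) cDC1 at the 8 peaks of class I genes, with the position of each peak relative to its gene. Bars are 1 tag set each, and error bars are exact 95% Poisson intervals of the tags. The knockout bar of the Nlrc5 peak 5.62 kb below the gene is at the lowest listed value. Wild-type signal ran from 8.32 at that peak to 93.6 near Psmb9.

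Across the 8 peaks, knockout signal ran from 0.412 to 4.95 normalised tags with a median of 3.09, and wild-type signal from 8.32 to 93.6 with a median of 21.6. Over all 31473 cDC1 peaks the medians were 1.65 in knockout and 15.5 in wild-type cells. In wild type, 5 of the 8 peaks lay above the median of the list. A count of 3 knockout tags equals 2.47 normalised tags, so the knockout values rest on a handful of tags each.

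The strongest of the 8 peaks was that of Psmb9, which encodes a catalytic subunit of the immunoproteasome. It lay on chromosome 17 from 34174214 to 34174404, which is 7.72 kb beyond the lower end of the gene and 13 kb downstream of its start. Signal there was 4.53 normalised tags in knockout and 93.6 in wild-type cDC1, with a fold of 20.7 (95% interval 8.63 to 52.1; 5.5 knockout and 333 wild-type tags). Its score of 171 ranked 133 of 31473, within the top 0.423% of the list. The peak stood 11.5-fold above the surrounding 10 kb, where listing required at least 4-fold. Psmb9 was the nearest protein-coding gene, but the peak lay between Psmb9 and H2-DMb1, a class II loading gene, and the assignment by distance does not tie it to either gene.

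Psmb9 occupies 34182030 to 34187330 of chromosome 17 and is followed in order by Tap1, at 34187556 to 34197225, Psmb8, at 34198195 to 34201454, and Tap2, at 34204479 to 34216321. Psmb8 encodes another catalytic subunit of the immunoproteasome, and Tap1 and Tap2 the paired chains of the peptide transporter. No cDC1 peak lay inside any of these 4 genes. The stretch without a peak ran 65.6 kb, from the Psmb9 peak to one inside H2-Ob, at 34239801 to 34239991, with 5.36 normalised tags in knockout and 38.3 in wild-type cDC1. From the gene body, the nearest cDC1 peak was 13.2 kb away for Tap1, 23.9 kb for Psmb8 and 23.6 kb for Tap2. A stretch of this length was not rare: 18.7% of the 31441 gaps between neighbouring cDC1 peaks were at least as long, and the median gap was 17.7 kb.

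**Figure D2:**
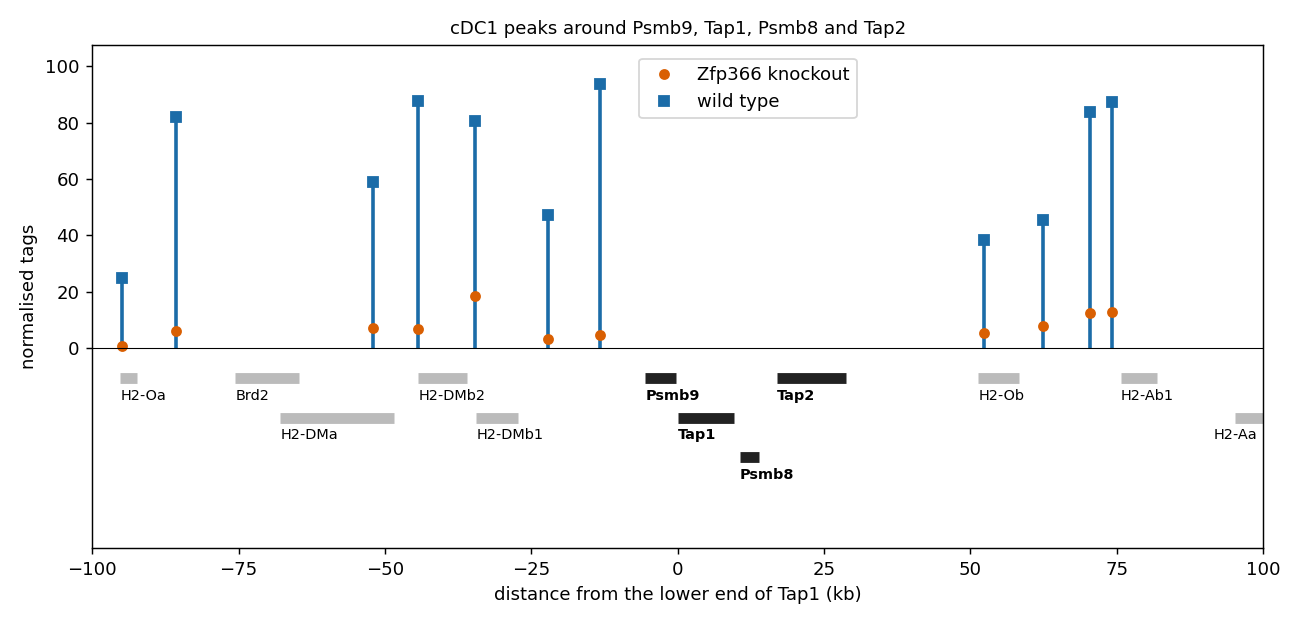
cDC1 peaks within 100 kb of the lower end of Tap1, by distance in kb, with normalised tags of knockout (orange circles) and wild-type (blue squares and stems) cDC1. Bars below show protein-coding genes, class I genes in black. The 11 peaks flank the block of Psmb9, Tap1, Psmb8 and Tap2, and no peak lies in the 65.6 kb over it.

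Of the chains that form the class I molecule, the heavy chain gene H2-D1, on chromosome 17 from 35263094 to 35267497, had 2 peaks, one on each side. The upstream one, from 35259124 to 35259314, lay 3.88 kb before the start and held 4.12 normalised tags in knockout against 25.9 in wild-type cDC1. Its fold was 6.39 (95% interval 2.66 to 20.3). The other, from 35269901 to 35270091, lay 2.5 kb beyond the upper end and held 2.47 normalised tags in knockout against 10 in wild-type cDC1. Its fold of 4.1 (95% interval 1.3 to 20.8) was just above the limit of 4 and was 3.16 with 1 tag added to each set. Its score ranked 23039. The stronger peak ranked 6294.

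H2-K1, the companion heavy chain gene at 33996012 to 34000619 of chromosome 17, had no peak. Its nearest cDC1 peak was 17.1 kb below the gene and was assigned to Vps52, with 6.18 normalised tags in knockout and 38.2 in wild-type cDC1. Heavy chain genes are known as a family of related copies, of which the start regions of this pair are shown above, and the sources used do not state how reads that match several copies were placed. The values at H2-K1, at H2-D1 and at the other heavy chain genes are uncertain on that account, and the part of read placement in them was not tested. B2m, the light chain gene on chromosome 2 from 122147687 to 122153082, had no peak either. Its nearest cDC1 peak was 11 kb above the gene, inside Patl2 and Trim69, with 1.65 normalised tags in knockout and 11.3 in wild-type cDC1.

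In the loading complex, Tapbp encodes tapasin, which bridges the transporter and the heavy chain. It lies on chromosome 17 from 33919478 to 33929290, and its peak, from 33919633 to 33919823, was centred 0.25 kb inside the gene from the start. This peak held 4.95 normalised tags in knockout and 34.7 in wild-type cDC1, a fold of 7.04 (95% interval 3.13 to 19.5; 6 knockout and 123 wild-type tags). It ranked 4312 by score and stood 5.17-fold above the surrounding 10 kb. Across the 8 peaks this ratio ran from 4.06, at the upper H2-D1 peak, to 11.5 near Psmb9, with 4 required for listing. Among the 8 genes with a RefSeq window, it was the only peak centred within 1 kb of a start.

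A stronger peak lay 3.51 kb below Tapbp, next to the start of Zbtb22, a zinc finger gene, and was assigned to that gene. At 33915869 to 33916059 it held 11.5 normalised tags in knockout and 56.7 in wild-type cDC1, a fold of 5.19 (95% interval 3.02 to 9.64). Another peak at 9.41 kb, inside Daxx, held 3.71 normalised tags in knockout and 37.1 in wild-type cDC1. The part of the Zbtb22 peak that falls in a RefSeq window, 134 bases at chr17:33915926-33916059 on the plus strand, is shown because, of the peaks within 10 kb of a class I gene, it alone overlaps a RefSeq window of its assigned gene. The capitals mark CCAAT.

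Zbtb22: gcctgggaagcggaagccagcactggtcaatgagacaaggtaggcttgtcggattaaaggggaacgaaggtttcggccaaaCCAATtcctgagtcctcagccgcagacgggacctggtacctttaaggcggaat

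Calr encodes calreticulin, a chaperone of the loading complex, and lies on chromosome 8 from 84842088 to 84846931. It had no peak, and the nearest one in cDC1 was 26.3 kb below the gene, inside Dand5, with 2.06 normalised tags in knockout and 11.7 in wild-type cDC1.

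Nlrc5, on chromosome 8 from 94434335 to 94527272, had the most peaks of the class I genes. Inside the gene, the peak at 94443230 to 94443420 lay 8.99 kb from the lower end and held 1.24 normalised tags in knockout against 25.4 in wild-type cDC1. Its fold was 20.5 (95% interval 4.14 to 129), with 1.5 knockout tags behind it, and 12.5 with 1 tag added to each set. The second peak inside, at 94459242 to 94459432, lay 25 kb from the lower end, with 2.88 normalised tags in knockout and 12.8 in wild-type cDC1 and a fold of 4.44 (95% interval 1.44 to 15), or 3.54 with 1 tag added to each set. These intervals overlap, and the folds of these peaks were not tested against each other.

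Below the gene, the Nlrc5 peak at 94417656 to 94417846 lay 16.6 kb away and held 3.3 normalised tags in knockout against 17.9 in wild-type cDC1, a fold of 5.47 (95% interval 2.04 to 20.7). The peak at 94428620 to 94428810 lay 5.62 kb away and was the weakest of the 8. Its knockout signal of 0.412 normalised tags is the lowest listed value, which can stand for no tag, and its wild-type signal was 8.32, so only the lower 95% limit of its fold, 2.61, is given.

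**Figure D3:**
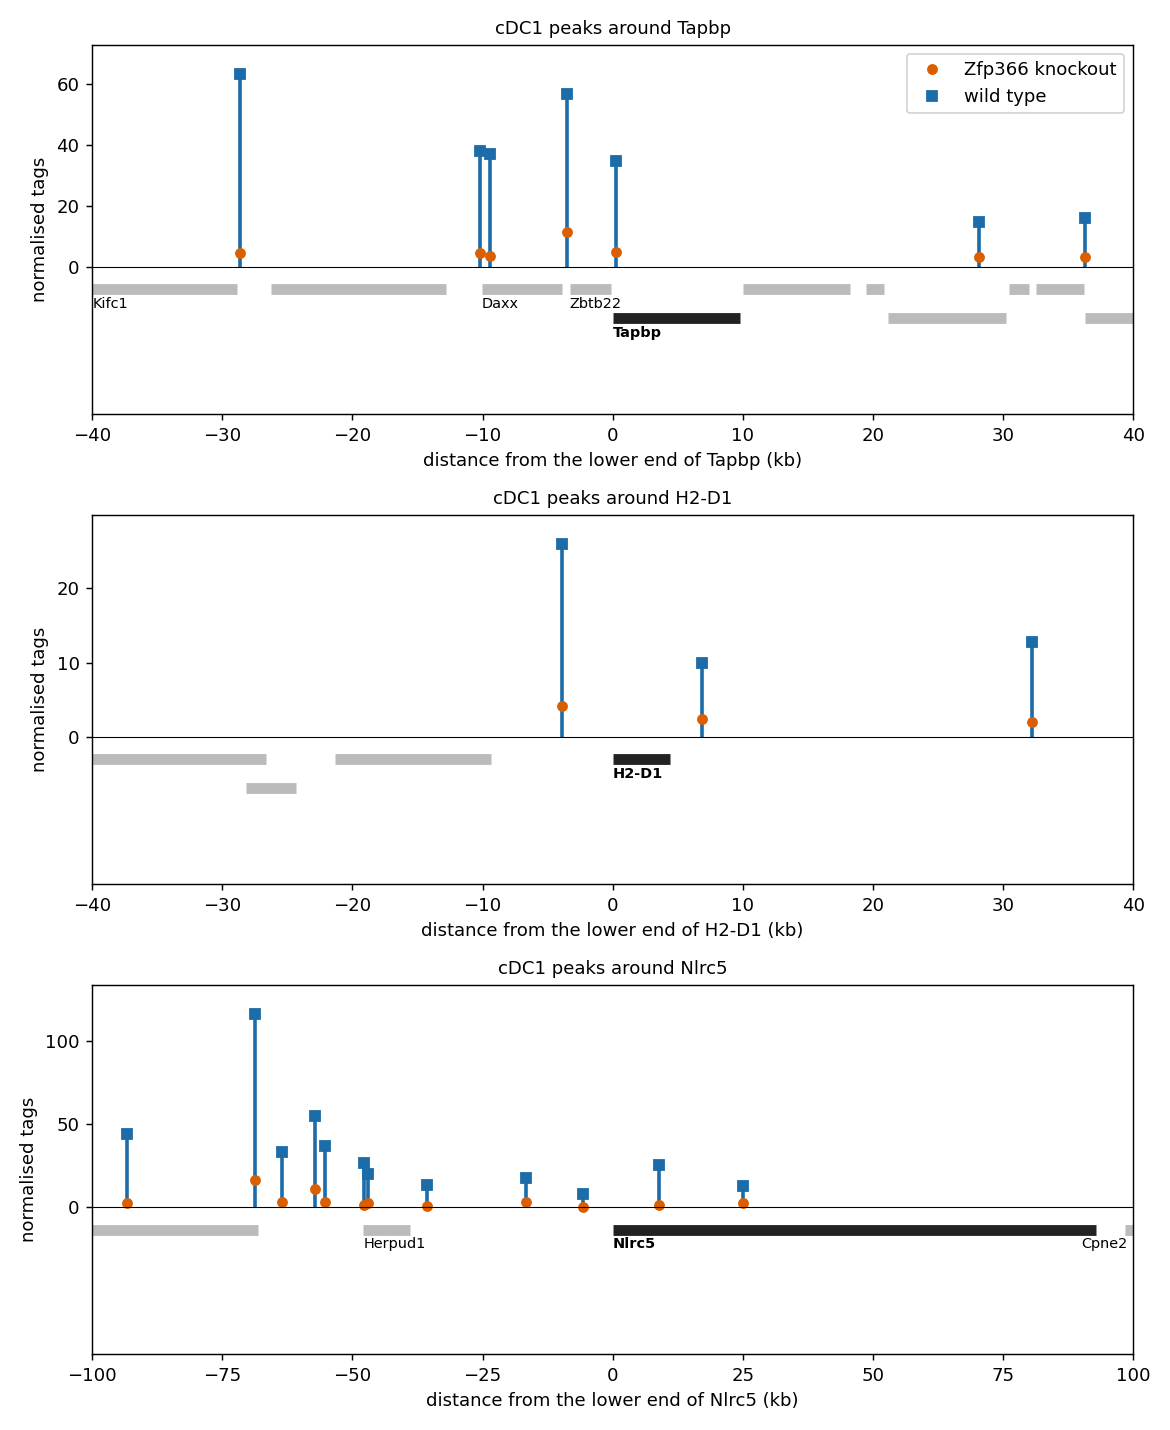
cDC1 peaks around Tapbp, H2-D1 and Nlrc5, by distance in kb from the lower end of each gene, with normalised tags of knockout (orange circles) and wild-type (blue squares and stems) cDC1. Bars below are protein-coding genes, class I genes in black. Tapbp has its peak 0.25 kb inside the lower end, the H2-D1 peaks flank the gene, and the Nlrc5 peaks, up to 25.4 in wild type, stand on both sides of its lower end.

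In cDC2, 0 of the 10 class I genes had a peak, where 9.54% of the 21887 genes did. A cDC2 peak centre lay inside 0 of the 10, against 5.33% of all genes, and within 1 kb of a RefSeq start for 0 of 8, against 2.44%. No knockout or wild-type tags can be given for the class I genes in cDC2, since the list holds peaks only. The wild-type side of that list rests on 1 library and 4.775 M tags. The nearest cDC2 peaks lay 43.1 kb from H2-D1, 79.5 kb from Nlrc5 and over 100 kb from the other 8 genes, up to 1515 kb from B2m. With 2776 cDC2 peaks in the genome against 31473 in cDC1, long distances can be met at any gene. The distances of other genes were not computed, so these are not a trait of class I genes. For H2-K1, Tapbp, Psmb9, Tap1, Psmb8 and Tap2 the nearest cDC2 peak was the same one, at 34392466 to 34392656 of chromosome 17. It held 1.47 normalised tags in knockout and 24.1 in wild-type cDC2.

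**Figure D4:**
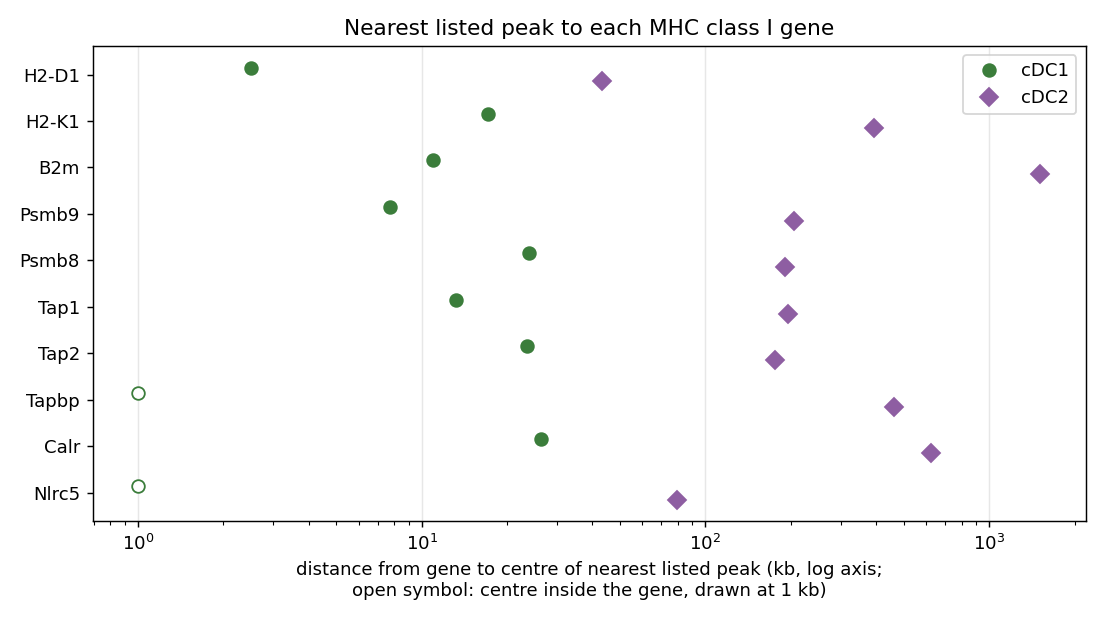
Distance in kb (log axis) from each class I gene to the centre of the nearest peak in cDC1 (green circles) and cDC2 (purple diamonds). Open symbols, drawn at 1 kb, stand for a centre inside the gene, as at Tapbp and Nlrc5, and the cDC2 peaks lie 43.1 kb to 1515 kb away. The lists hold 31473 cDC1 and 2776 cDC2 peaks, and distances of other genes are not shown.

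None of the 8 class I peaks of cDC1 overlapped a cDC2 peak. The cDC2 list reached down to 12.6 normalised wild-type tags. Of the class I peaks, 6 were at or above that level in cDC1 and 2 were below it. At the cDC2 wild-type depth, the cDC1 signal near Psmb9 would equal 44.7 tags, that of Tapbp 16.6 tags and the weakest Nlrc5 peak 3.97 tags, and the weakest listed cDC2 peak held 6. This scaling takes account of depth alone. The peak caller put 6.47% of wild-type tags in peaks in cDC1 and 0.79% in cDC2. The scaled tags therefore do not say which of these sites could have been listed in cDC2.

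Absence from the cDC2 list was the usual case for peaks of like strength. Among the 163 cDC1 peaks within 10% of the wild-type signal near Psmb9, 33.1% overlapped a cDC2 peak (exact 95% interval 26% to 40.9%). For Tapbp the share was 11.6% of 1864 peaks (exact 95% interval 10.2% to 13.1%), and at the signal of the Nlrc5 peak at 94443230 it was 6.8% of 2719 peaks (exact 95% interval 5.89% to 7.82%). At the weakest Nlrc5 peak it was 1.06% of 2542 peaks (exact 95% interval 0.701% to 1.54%). Each set of like peaks includes the class I peak itself. The intervals of these shares treat the peaks of 1 list as independent and cover no spread between mice. The part of depth, and of the share of tags in peaks, in the absence of cDC2 peaks was not tested. A difference between the subsets at these genes was not tested either.

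**Figure D5:**
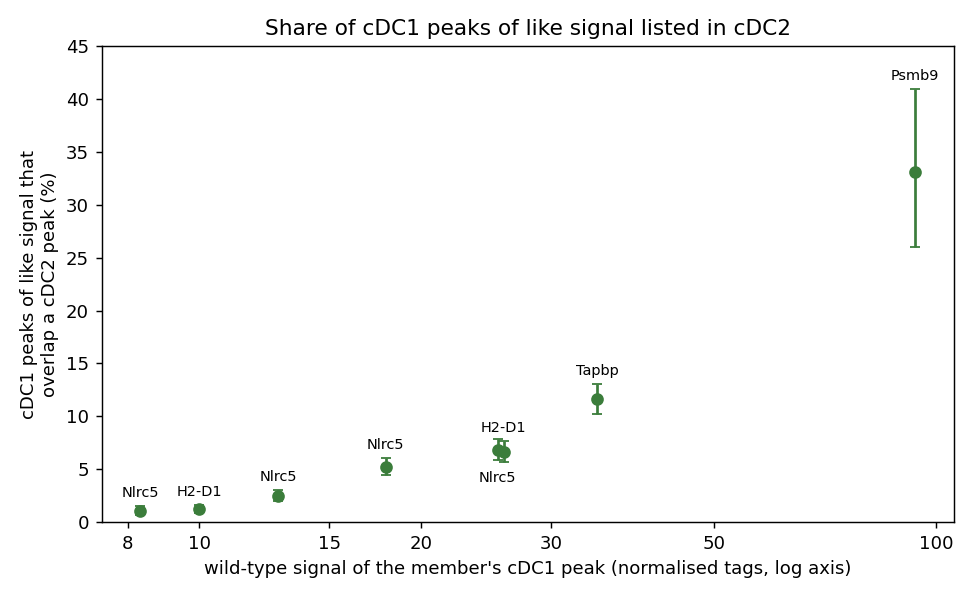
Share of cDC1 peaks that overlap a cDC2 peak, in %, among those within 10% of the wild-type signal of each class I peak, plotted against that signal in normalised tags (log axis). Error bars are exact 95% binomial intervals that treat peaks as independent and cover no spread between mice. The share is 33.1% at the signal near Psmb9 and 1.06% at the weakest Nlrc5 peak.

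Other genes of the class I pathway were counted in the same way. They were chosen with earlier results of these data known, so their share beside that of all genes is a description only. The part of gene length in their counts was not tested. In a list of 33, a cDC1 peak was listed for 30, where 51.4% of all genes had one, and H2-Q4, H2-T22 and H2-M2 had none. The 30 comprised all 8 genes of peptide generation and trimming, all 5 of the chaperone and transport genes, all 6 transcription genes and 11 of 14 heavy chain and class I-like genes. With a deposited fold of at least 8, the count was 17 of 33, against 38.6% of all genes. The highest-scoring peaks were those of Psme2, Irf1, Irf2 and Lnpep. Psme2, a proteasome activator subunit, held 14.8 normalised tags in knockout and 129.8 in wild-type cDC1, a fold of 8.74 (95% interval 5.47 to 14.9). Irf1, a transcription factor that induces class I genes, reached 9.89 in knockout and 60.8 in wild-type cDC1. Its relative Irf2 carried 11 peaks, the highest-scoring with 2.06 normalised tags in knockout and 50.6 in wild type, and Lnpep, an aminopeptidase of endosomes, reached 2.47 in knockout and 48.9 in wild type. The named peaks of Psme2, Irf1 and Lnpep lay 0.163, 6.19 and 0.15 kb outside their genes, and that of Irf2 inside. In cDC2, 3 of the 33 had a peak, against 9.54% of all genes, namely Irf2, Cd1d1 and Mr1. Cd1d1 and Mr1 encode class I-like molecules that present lipids and small metabolites.

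The class II genes interleaved with these class I genes on chromosome 17 gave other counts. All 9 class II genes examined, counting Ciita on another chromosome, had a cDC1 peak, where 51.4% of all genes did. The 10 class I genes held 8 peaks with a median of 21.6 normalised wild-type tags, and the 9 class II genes 18 peaks with a median of 57.3. The highest-scoring were H2-DMb2, H2-Aa, H2-DMb1 and H2-Ab1, with 6.59, 14.8, 18.5 and 12.8 normalised tags in knockout, against 87.8, 95.4, 80.6 and 87.4 in wild-type cDC1. These peaks lay 0.032, 5.88, 0.205 and 1.48 kb outside their genes, in that order. Folds were 13.3 (95% interval 6.69 to 31.2) for H2-DMb2 and 6.47 (95% interval 4.03 to 11) for H2-Aa. For H2-DMb1 the fold was 4.38 (95% interval 2.8 to 6.87), and for H2-Ab1 6.85 (95% interval 4.02 to 11.7). In cDC2, 1 of the 9 had a peak, close to the 9.54% of all genes. It was Ciita, with 1.47 normalised tags in knockout and 28.3 in wild type. These lists were not tested against each other, and neighbouring genes are not independent. The class II list was also chosen with earlier results of these data known.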

How the data were processed

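CUT&Tag of DC-SCRIPT in splenic cDC1 and cDC2 was taken from 2 deposited peak lists, 1 per subset. Per the file headers, the authors called peaks of 191 bp with HOMER findPeaks in factor style on 1 wild-type tag set with 1 knockout tag set as control, at a false discovery rate of 0.001, with limits of 4 on the fold and 0.0001 on the Poisson p over tags. These limits also applied to the 10 kb around a peak. The submitters' processing notes name HOMER, GRCm38 and mm10. The sources used do not state the aligner, the removal of duplicates, the placement of reads with several matches, or which libraries entered a tag set.

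The deposited signal is wild-type tags scaled by the authors to 10000000. The deposited fold is the ratio of tags in wild type over knockout after the authors set both to 1 depth, and the ratio to the surroundings was read too. The deposited score is HOMER's and was ranked within a list. Each deposited p-value is a Poisson p over tags, not replicates, and is not printed. Columns on tag focus and on clonal tags were not used. The knockout depths were derived from how the deposited columns are scaled, and knockout tags were scaled by them. In cDC1 the depth came from the median ratio of wild-type tags at knockout depth to the normalised wild-type tags. In cDC2 it was fitted to the spacing of the scaled knockout tags, so knockout values in cDC2 depend on that fit.

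Peaks were assigned to RefSeq protein-coding genes of GRCm38.p6 on chromosomes 1 to 19, X and Y. Exact (Clopper-Pearson) 95% intervals of the tag ratio used tags rounded to whole numbers, with the lowest knockout value, 0.5, taken as 0, and intervals of single tag counts were exact Poisson. Reads without molecular identifiers are not independent molecules, so these intervals cover counting error only. Intervals of shares of peaks were exact binomial. Assignment and intervals were tested on simulated data. The aligned promoter windows of H2-D1 and H2-K1 were compared by global alignment. Python 3.11.15, numpy 2.4.6, pandas 2.3.3, scipy 1.17.1, biopython 1.88 and matplotlib 3.10.9 were used.

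The members and lists were chosen with earlier results of these data known. All 10 members were named with every peak or their nearest one, with the 4 highest-scoring genes per other list and genes holding peaks within 10 kb of a member. The roles that divide the wider list were assigned afterwards. One knockout cDC2 library is numbered 2 in its title and 3 in its pool label. The title was used.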

Additional observations from a re-analysis of the deposited data

How the results depend on the processing

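The counts for the 10 genes depend on how far and how strong a peak may be. With centres inside a gene only, 2 genes and 3 peaks were left in cDC1. With the higher-scoring 50% of peaks, all 4 genes still had a peak and 5 peaks were left. With a deposited fold of at least 8, 2 genes (Psmb9 and Nlrc5) and 3 peaks were left, and 17 of the 33 other pathway genes, where 38.6% of all genes had such a peak. One of the 3 is the Nlrc5 peak at 94428620, whose deposited fold rests on the lowest knockout value and whose lower 95% limit is 2.61. Limits of 10 kb, any peak within 10 kb of a member, and non-coding genes in the assignment gave 4 genes and 6 to 9 peaks. In the last of these, a pseudogene and a long non-coding RNA lay nearer to the Nlrc5 peaks below the gene. In cDC2 the count for the 10 genes was 0 under these 6 alternatives. No cDC1 peak of the 10 genes met a cDC2 peak with centres within 1 kb or an overlap of 50%. With 1 tag added to each set, all 7 folds stayed within their intervals and ran from 3.16 to 17.6. The Nlrc5 peak at 94443230 then had 12.5, and the upper H2-D1 peak (3.16) and the Nlrc5 peak at 94459242 (3.54) were under the listing limit of 4. No paired analysis was possible because the lists hold 1 tag set per genotype and subset. For the same reason no library could be left out.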

Other observations

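Psmb5, Psmb6 and Psmb7 encode the constitutive proteasome subunits whose places the immunosubunits take. In cDC1, 1 of these 3 genes had a peak, where 51.4% of all genes did. Psmb5 and Psmb6 had none. Psmb7 had 2 peaks, and the higher-scoring one, inside the gene, held 2.47 normalised tags in knockout and 70.1 in wild-type cDC1, a fold of 29 (95% interval 9.8 to 141). In cDC2, 0 of the 3 had a peak, where 9.54% of all genes did.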
